A study of Mus musculus with 6 samples.

Results

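Respiratory complex I is read here through every non-control array probe whose gene name begins with Ndufa, Ndufb, Ndufc, Ndufs, Ndufv or Ndufaf followed by a digit, or is Ndufab1; Ndufa4l2 was left out. The rule took 56 of the 55681 probes, for 41 of 34797 gene names on the array, and used no measured value. Of these genes, 36 encode subunits, 4 encode assembly factors that build the enzyme without staying in it, and 1, Ndufa4, is now counted with complex IV. All 56 probes passed the filter on dim signals, and 54 of them were well above background on all 6 arrays.

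G1E-ER-GATA-1 cells are a single mouse line of red cell precursors, made from GATA-1-deficient cells, in which a GATA-1 and estrogen receptor fusion becomes active when estradiol is given. All 6 samples were grown with erythropoietin, Kit ligand medium and puromycin, were electroporated with siRNA at 0 h and 24 h, received estradiol from 24 h, and were harvested at 48 h. In 3 of them the siRNA was directed at Foxo3, which encodes a forkhead transcription factor, and in the other 3 it was nontargeting. There was no sample without estradiol and none without siRNA. Each RNA was read by a 1-colour Agilent array, and values below are log2 signals relative to the 75th percentile of the same array, so 0 is the brightness of the spot at that percentile.

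Complex I is the first enzyme of the mitochondrial respiratory chain. It takes electrons from NADH in the matrix, passes them along iron-sulfur clusters to ubiquinone and pumps protons across the inner membrane. Its matrix arm carries the flavin and the clusters, its membrane arm carries the pumps, whose core subunits are encoded by mitochondrial DNA, and accessory subunits surround both. In maturing erythroid cells mitochondria also supply the heme pathway and are cleared before the red cell is complete.

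The sequences that follow are probes of 5 genes that rose, from both arms and the assembly factors, beside the Ndufv3 probe that did not, so that the stretch of transcript behind a result is visible. They are 60 bases long, on mouse build mm9, with no base marked by capitals, and all of them have at least 1 forward reading frame without a stop codon. Where the positions span more than 60 bases, the probe crosses an intron of the genome. Exon and untranslated-region annotation of mm9 was not used here.
Ndufv3 (risen), chr17:31665148-31665207, plus strand: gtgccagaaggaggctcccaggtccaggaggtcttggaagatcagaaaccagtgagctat
Ndufv3 (not risen), chr17:31663758-31663817, plus strand: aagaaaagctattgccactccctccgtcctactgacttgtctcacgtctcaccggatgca
Ndufaf3, chr9:108468692-108468899, minus strand: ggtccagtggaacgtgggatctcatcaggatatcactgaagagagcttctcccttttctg
Ndufaf4, chr4:24830284-24830343, plus strand: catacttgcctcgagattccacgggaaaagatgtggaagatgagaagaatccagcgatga
Ndufb8, chr19:44624855-44627199, minus strand: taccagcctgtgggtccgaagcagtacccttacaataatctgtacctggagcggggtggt
Ndufa10, chr1:94361039-94363996, minus strand: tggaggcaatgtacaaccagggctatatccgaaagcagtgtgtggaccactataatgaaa

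The siRNA target was checked first. For the Foxo3 probe on the RefSeq mRNA, the log2 signal was −0.46, −1.29 and −1.89 after knockdown and 1.23, 1.28 and 1.12 in the controls. The groups did not overlap, and the fall of this probe left 18.6% of the nontargeting signal (log2 fold change −2.42, SE 0.34, limma adjusted p = 0.00536, n = 3 arrays per group). On 1 of the knockdown arrays this signal was not well above background, while 2 of 3 measured it. Another probe, taken from a cDNA clone, read 1.25, 0.75 and 0.77 after knockdown against 0.67, 0.64 and 0.7 in the controls. All its knockdown values lay above the control values, and it did not fall (0.25, SE 0.16, limma adjusted p = 0.259). Over all arrays the clone probe was the brighter, so it stands for Foxo3 under the brightest-probe rule used for genes here. The knockdown therefore rests on 1 probe, the RefSeq one, which does not stand for the gene. In the controls the clone probe had a mean of 0.67, against 1.21 for the RefSeq probe.

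Complex I transcripts were more often higher than lower in the cells given Foxo3 siRNA. With the brightest probe standing for each gene, 16 of the 41 genes rose, 0 fell and 25 did not pass the test at an adjusted p under 0.05. At an unadjusted p under 0.05 there were 22, with Ndufa1 among them as lower. The share of all features at that unadjusted level was not counted, here or for the lists below. Among all 19234 features, each a gene or unnamed transcript read by its brightest kept probe, 13% rose and 13.2% fell. Among the 13505 features well above background on all 6 arrays, as all 41 complex I genes were, 17.6% rose and 12.4% fell.

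The median log2 fold change of the 41 genes was 0.30, against −0.16 for all features. For the features well above background on all 6 arrays it was −0.01, a distance of 0.31 from the complex I median. The fold change was above 0 for 35 of the 41 genes and below 0 for 6. The values of the Foxo3 siRNA arrays all lay above those of the nontargeting arrays in 27 genes and all below in 2, beside 22.7% and 28.5% of all features. Array by array, the median complex I gene stood 0.34, 0.28 and 0.29 above the nontargeting mean in Foxo3 siRNA replicates 1, 2 and 3 (SD 0.03), and 31, 29 and 33 of the 41 genes exceeded every nontargeting value, beside 32.0%, 32.0% and 31.2% of all features.

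**Figure D1:**
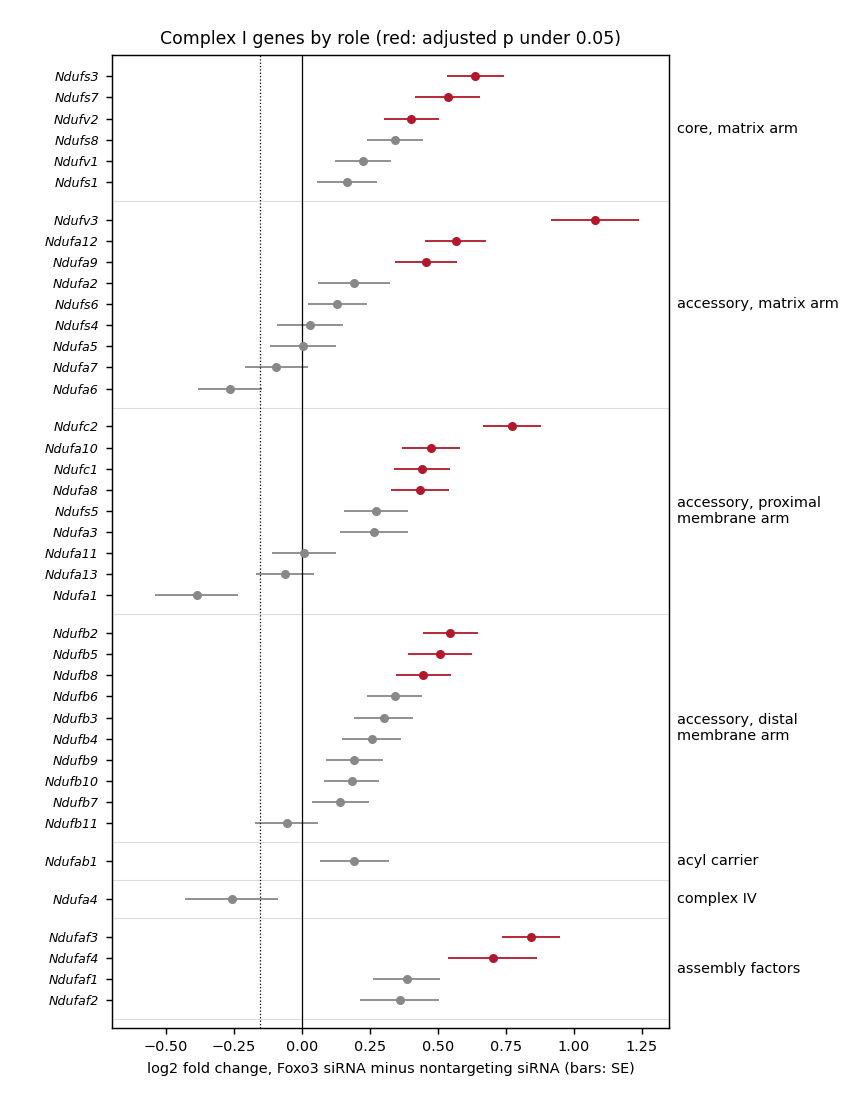
Log2 fold change, Foxo3 siRNA minus nontargeting siRNA, of 40 of the 41 complex I genes grouped by role; points are the brightest probe of each gene, bars are the standard error of the limma fit, red marks an adjusted p under 0.05, and the dotted line is the median of all features at −0.16. The 15 red genes drawn lie in both arms and among the assembly factors, and all 15 are above 0.

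How many genes passed depended on the arrays and on the scaling. Leaving out Foxo3 siRNA replicate 1, 2 or 3 left 10, 6 and 8 genes higher, beside 11.2%, 7.7% and 9.06% of all features. Leaving out nontargeting replicate 1, 2 or 3 left 8, 4 and 7, beside 7.97%, 7.21% and 9.02%; Ndufaf3, Ndufc2, Ndufs3 and Ndufv3 passed in all 6 of these fits. Ndufb2 passed in 5 of them, all but the one without nontargeting replicate 2, and Ndufa12 in 4, all but those without Foxo3 siRNA replicate 2 or nontargeting replicate 2. Ndufs7 passed in 2, Ndufa10, Ndufa9, Ndufaf4, Ndufb5 and Ndufb8 in 1 each, and Ndufa8, Ndufc1 and Ndufv2 in 0. Foxo3 siRNA replicate 1 shared a row of the slide with the 3 nontargeting arrays, while replicates 2 and 3 were in the other row. With the slide row as a block 3 of the 41 genes passed (Ndufaf3, Ndufs3 and Ndufv3), beside 4.53% of all features. Within row 1 alone 1 passed (Ndufv3), beside 2.30%, a share close to that of 1 in 41, and the median was 0.34 in both; these values rest on 1 Foxo3 siRNA array. In the authors' deposited table only Ndufv3 was higher among the 41, beside 3.08% of all features.

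The scale set the zero of the comparison. Scaling each array to its median moved the median of all features from −0.16 to 0.16, and scaling to 6 spike-in controls moved it to 0.23, and each moves every fold change by the same amount, so the distance of 0.46 between the complex I median and that of all features is fixed by construction. Over all features, 2503 rose and 2530 fell on the 75th percentile scale, 2483 and 1853 after quantile normalization, 2965 and 810 on the median scale, and 787 and 156 on the spike-in scale. The number of complex I genes that rose was 15 on the median scale and 1 on the spike-in scale. Of the 6 genes below 0, only Ndufa1 was also below 0 on both of these scales.

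**Figure D2:**
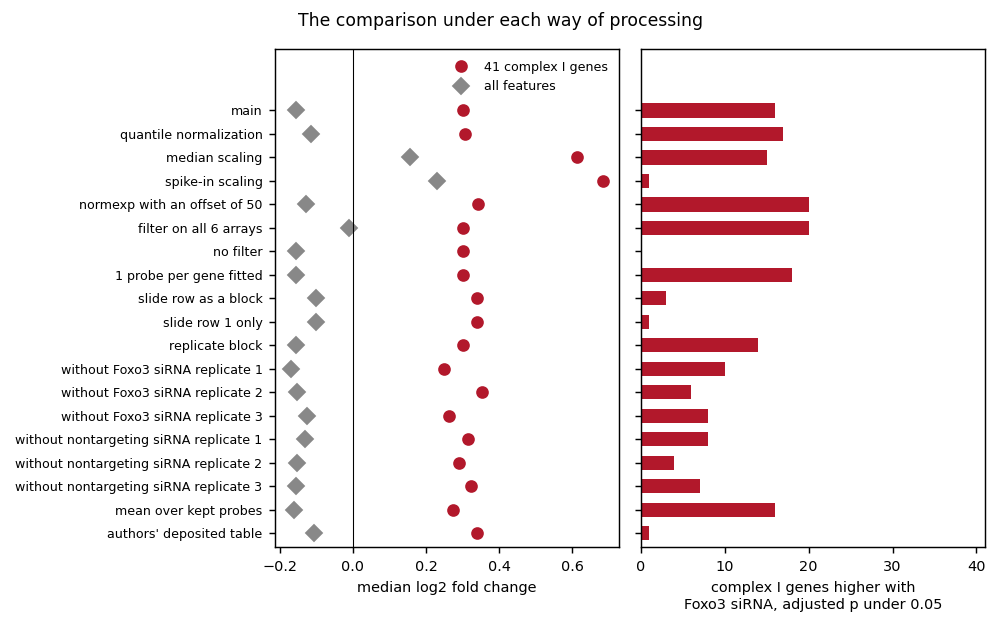
Median log2 fold change of the 41 complex I genes (circles) and of all features (diamonds), and the number of complex I genes higher with Foxo3 siRNA at an adjusted p under 0.05 (bars), under each way of processing. The complex I median lies above that of all features in every setting shown, between 0.25 and 0.69, while the number of genes past the threshold ranges from 0 to 20.

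The core of the matrix arm, the subunits that bind the flavin and the iron-sulfur clusters, held 7 nuclear genes on the array. Of these, 4 rose, all 7 were above 0, and their median was 0.40 (range 0.17 to 0.64). Beside this count and those of the other roles and lists below, 13% of all features rose and 13.2% fell. Ndufs3, a core subunit next to the ubiquinone site, read 6.47, 6.34 and 6.38 on the Foxo3 siRNA arrays against 5.69, 5.81 and 5.78 on the nontargeting arrays. The lowest Foxo3 siRNA value lay well above the highest nontargeting value, and Ndufs3 rose 1.56-fold (log2 0.64, SE 0.10, adjusted p = 0.00874). Ndufs7, which carries the last iron-sulfur cluster before ubiquinone, read 6.03, 5.83 and 6.01 against 5.31, 5.40 and 5.55. Its groups were also apart (0.54, SE 0.12, adjusted p = 0.0229).

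Ndufv2, an iron-sulfur subunit at the NADH end, rose by 0.40 (SE 0.10, adjusted p = 0.0322). Ndufs8, which holds a pair of clusters, gave 0.34 and missed the threshold (adjusted p = 0.0531). Ndufv1, which binds NADH and the flavin, gave 0.22 with its groups apart (adjusted p = 0.142), and Ndufs1 gave 0.17 with overlapping groups (adjusted p = 0.274).

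The accessory subunits of the matrix arm were more mixed: 3 of 9 rose, 2 were below 0, and the median was 0.13. The largest fold change among the 41 genes was here. Ndufv3, a small accessory subunit at the NADH-binding tip, read 8.37, 8.01 and 7.91 after Foxo3 knockdown against 7.13, 7.09 and 6.85 in the controls on its brightest probe (chr17:31668209-31668268). No Foxo3 siRNA array came down to the nontargeting range, with replicate 1 highest, and the probe rose 2.11-fold (log2 1.08, SE 0.16, adjusted p = 0.00657). In the authors' deposited table the same probe is 1.12 with an adjusted p of 0.0332.

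Another Ndufv3 probe on the same RefSeq mRNA, the one marked as risen in the sequences above, read 2.42, 2.14 and 2.06 against 1.24, 1.13 and 0.95. It rose by nearly the same amount (1.10, SE 0.14, adjusted p = 0.00439). The remaining probe, at chr17:31663758-31663817, was designed on an Ensembl transcript and read −0.10, −0.48 and −0.37 against 0.26, −0.27 and −0.27. Its groups overlapped and it did not rise (−0.22, SE 0.19, adjusted p = 0.382). The NDUFV3 gene is known to make a short and a long protein that differ by an internal exon; which of these each probe reads was not tested. The difference between the probes was not tested either.

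Ndufa12, an accessory subunit at the NADH-binding part of the arm, read 5.07, 5.20 and 5.32 against 4.60, 4.64 and 4.66, with the groups apart. It rose by 0.57 (SE 0.11, adjusted p = 0.0157). Ndufa9, which holds a nucleotide where the matrix arm meets the membrane, read 4.73, 4.64 and 4.69 against 4.37, 4.19 and 4.13. It rose by 0.46 (SE 0.11, adjusted p = 0.0308). The remaining 6 did not pass. Ndufs4 and Ndufs6, late-joining subunits of the NADH-binding module, gave 0.03 and 0.13 with overlapping groups, Ndufa2 gave 0.19, Ndufa5 0.004 and Ndufa7 −0.09. Ndufa6, which docks the acyl carrier protein Ndufab1 on the matrix arm, read 8.26, 7.97 and 8.16 against 8.40, 8.36 and 8.41. All 3 Foxo3 siRNA values were below the nontargeting ones, but the difference of −0.26 missed the threshold (adjusted p = 0.134) and was 0.05 on the median scale.

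**Figure D3:**
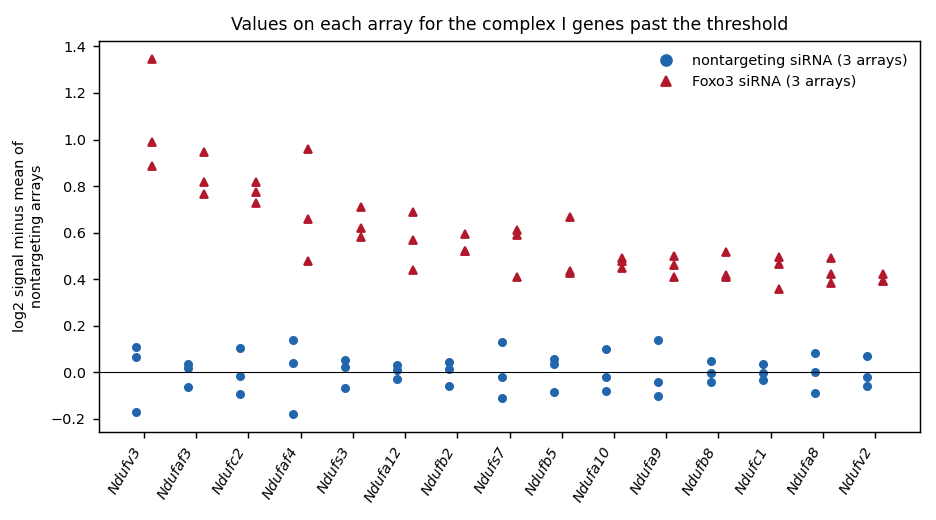
Log2 signal on each array minus the mean of the 3 nontargeting arrays, for 15 of the 16 complex I genes past the threshold, ordered by fold change; triangles are the 3 Foxo3 siRNA arrays and circles the 3 nontargeting arrays. The triangles lie above all circles in each of the 15 genes drawn, and the gap is widest for Ndufv3.

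The membrane arm was represented by its accessory subunits at the end near the matrix arm and at the far end. At the near end 4 of 9 genes rose and 2 were below 0, with a median of 0.27. Ndufc2, a small membrane subunit of this part, read 5.57, 5.62 and 5.66 after Foxo3 knockdown against 4.75, 4.95 and 4.83 in the controls. The arrays within each group lay close together and the groups far apart, and Ndufc2 rose 1.71-fold (log2 0.77, SE 0.11, adjusted p = 0.00523). Ndufc1, its neighbour in the complex, read 6.66, 6.55 and 6.69 against 6.16, 6.19 and 6.23. It rose by 0.44 (SE 0.10, adjusted p = 0.0261).

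Ndufa10, a matrix-facing subunit with a nucleoside kinase fold, read 4.32, 4.33 and 4.29 against 3.82, 3.94 and 3.76. The Foxo3 siRNA arrays were nearly identical and all above the nontargeting arrays, and the gene rose by 0.47 (SE 0.11, adjusted p = 0.0226). Ndufa8, which faces the intermembrane space, rose by 0.43 (SE 0.11, adjusted p = 0.0305). Ndufs5 and Ndufa3 gave 0.27 and 0.26 with their groups apart but did not pass (adjusted p = 0.124 and 0.151), and Ndufa11 gave 0.008.

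Ndufa1, a membrane subunit encoded on the X chromosome, had the lowest fold change of the 41. It read 8.05, 7.60 and 7.66 after Foxo3 knockdown against 8.14, 8.06 and 8.26 in the controls. Foxo3 siRNA replicate 1 came close to the nontargeting arrays without reaching them, and the difference of −0.39 (SE 0.15, adjusted p = 0.103) did not pass with all arrays. Without Foxo3 siRNA replicate 1 it was the 1 complex I gene that passed as lower. Ndufa13, which is also known as a cell death regulator, gave −0.06 (adjusted p = 0.665).

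At the far end of the membrane arm 3 of 10 genes rose, 1 was below 0, and the median was 0.28. In 8 of the 10 the Foxo3 siRNA arrays were all above the nontargeting arrays, beside 22.7% of all features. Ndufb2, a single-pass membrane subunit, read 5.50, 5.43 and 5.43 against 4.92, 4.85 and 4.95. Its groups were clearly apart on this probe (0.54, SE 0.10, adjusted p = 0.0124) and on the other one (0.61, SE 0.11, adjusted p = 0.0118). Ndufb8, a subunit whose protein is often used to gauge assembled complex I, read 7.27, 7.28 and 7.38 against 6.82, 6.91 and 6.86, and rose by 0.45 (SE 0.10, adjusted p = 0.0243).

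Ndufb5, another single-pass subunit, had 4 probes. The brightest read 5.21, 4.98 and 4.97 against 4.58, 4.46 and 4.60 and rose by 0.51 (adjusted p = 0.0257), and a neighbour on the same RefSeq mRNA rose by 0.50 (adjusted p = 0.0249). The other two were designed on Ensembl transcripts and were dim. One gave 0.006 (adjusted p = 0.975) and the other −0.54 (adjusted p = 0.137), each with overlapping groups. As a mean over its 4 probes Ndufb5 gave 0.12 and did not pass (adjusted p = 0.396).

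Ndufb6 stood just short of the threshold (0.34, adjusted p = 0.0512), as did Ndufb3 by a wider margin (0.30, adjusted p = 0.0849), both with groups apart. Ndufb4, Ndufb9, Ndufb10 and Ndufb7 gave 0.26, 0.19, 0.18 and 0.14. Ndufb9 docks the other copy of the acyl carrier protein, and Ndufb7 and Ndufb10 face the intermembrane space. Ndufb11, an X-linked subunit whose human counterpart is mutated in a sideroblastic anemia, gave −0.06 and −0.04 on overlapping probes (adjusted p = 0.720 and 0.811) and 0.23 on a probe nearer the start of the gene (adjusted p = 0.156). The sign for the first pair was above 0 on the median and spike-in scales. Ndufab1, the acyl carrier protein shared with mitochondrial fatty acid synthesis, gave 0.19 (adjusted p = 0.272), and Ndufa4 gave −0.26 (adjusted p = 0.274), which was 0.05 on the median scale.

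**Figure D4:**
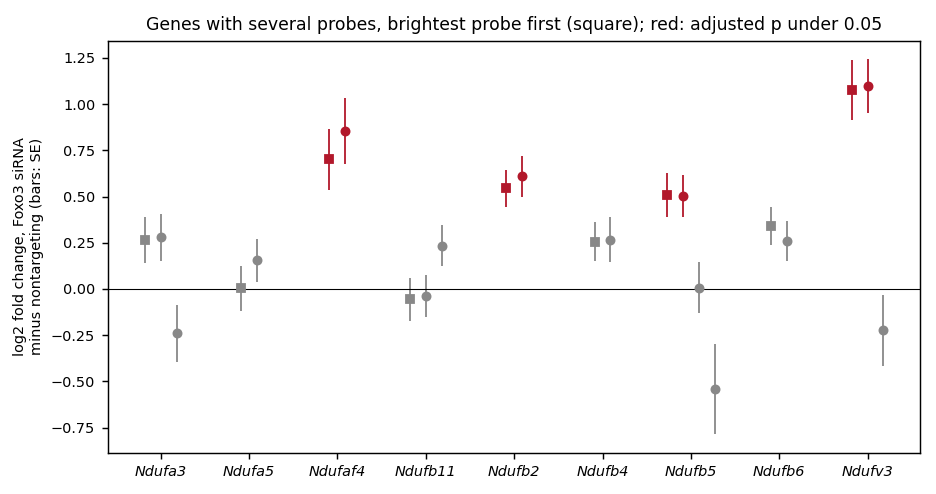
Log2 fold change of each probe for 9 of the 10 complex I genes with several probes, brightest first as a square, with the standard error as bars and red for an adjusted p under 0.05. All probes of Ndufaf4 and Ndufb2 are red, whereas Ndufb5 and Ndufv3 have both red and grey probes.

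Across all 56 probes, 21 rose and 0 fell, beside 12.2% and 13.4% of all kept probes. The Foxo3 siRNA arrays were all above the nontargeting arrays in 37 probes and all below in 2, beside 21.4% and 28.3%. Of the 10 genes with several probes, 2 had probes that differed in call (Ndufb5 and Ndufv3), and 4 had fold changes of both signs (those 2, Ndufa3 and Ndufb11). For Ndufa3 the probes on the 3′ side gave 0.26 and 0.28, and a dim one on an Ensembl transcript gave −0.24 (adjusted p = 0.256), none of them past the threshold.

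The 4 assembly factors matched by name were all above 0, with a median of 0.54; 2 rose. Ndufaf3 and Ndufaf4 work as a pair in the early joining of the ubiquinone-binding part of the matrix arm. Ndufaf3 read 3.24, 3.19 and 3.37 after Foxo3 knockdown against 2.36, 2.44 and 2.46 in the controls. With replicates tight and groups apart, it rose 1.79-fold (log2 0.84, SE 0.11, adjusted p = 0.00412). Ndufaf4 read 1.67, 2.15 and 1.85 against 1.01, 1.33 and 1.23, a wider spread within each group. It rose by 0.70 (SE 0.16, adjusted p = 0.0261), and its other probe, printed above, rose by 0.86 (SE 0.18, adjusted p = 0.0188). Ndufaf4 lost its call in 5 of the 6 fits that left out an array, all but the one without Foxo3 siRNA replicate 1. Ndufaf1, which helps to form the first part of the membrane arm, gave 0.38 (adjusted p = 0.0632). Ndufaf2, a relative of Ndufa12 that holds its place during assembly, gave 0.36 (adjusted p = 0.107).

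Some complex I genes stand on the array under clone names and so fell outside the name rule. Ndufaf7, a methyltransferase that acts during assembly, read 2.07, 2.33 and 2.23 against 1.21, 1.21 and 1.22. It rose 1.99-fold (log2 0.99, SE 0.11, adjusted p = 0.00295), and passed in all 6 fits that left out an array. Ndufb1, a small subunit of the membrane arm matched through a RefSeq synonym, read 2.38, 2.15 and 2.14 against 2.81, 2.63 and 2.61. Its groups were apart, and the log2 signal fell by 0.46 (SE 0.12, adjusted p = 0.0391). On the median scale the Ndufb1 difference was −0.15 (adjusted p = 0.751), and it passed in 1 of the 6 fits that left out an array, the one without Foxo3 siRNA replicate 1. Of the assembly factors Ndufaf6, Ndufaf8 and Ndufaf5, none passed (0.57, 0.30 and −1.15, adjusted p = 0.0526, 0.146 and 0.103), and neither did Ndufa11b (−0.12, adjusted p = 0.489).

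Other assembly factors, listed by function and not by name, moved in part. Of 12 listed, 11 were on the array and tested, 5 rose, 0 fell, and the median was 0.12, which was 0.43 on the median scale and 0.50 on the spike-in scale, with all 11 above 0 on both and 7 of 11 on the 75th percentile scale. Nubpl, which delivers iron-sulfur clusters to complex I, read 1.47, 1.29 and 1.16 against 0.82, 0.67 and 0.43 and rose by 0.67 (adjusted p = 0.0227). Foxred1, a flavoprotein needed for assembly, rose by 0.62 (adjusted p = 0.0137), and Dmac1, a factor for the far end of the membrane arm, rose by 0.47 (adjusted p = 0.0206). Ecsit and Acad9, which act in one assembly complex with Ndufaf1 and Tmem126b, were the other two that rose (0.55 and 0.43, adjusted p = 0.0355 and 0.0443), whereas Tmem126b gave −0.17 (adjusted p = 0.304). Ecsit, Acad9 and Tmem126b were named for this link after their values were seen. Leaving out 1 array in turn left 3, 1 and 2 of this list higher without Foxo3 siRNA replicates 1, 2 and 3, and 2, 1 and 2 without nontargeting replicates 1, 2 and 3. Of the 5, Foxred1 passed in all 6 fits that left out an array, Nubpl and Dmac1 in 2, Ecsit in 1 and Acad9 in 0; with the slide row as a block or on the spike-in scale 0 of the 5 passed.

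The core membrane subunits that mitochondrial DNA encodes were read by 7 probes named for the ND genes. The array's annotation places 6 of them on the mitochondrial genome and the ND3 probe on chromosome 1 (chr1:24619613-24619672), and which copy that probe reads was not tested. Of the 7, 0 passed in either direction by limma, with 3 at an unadjusted p under 0.05; with the filter on all 6 arrays 1, ND4L, passed as lower (adjusted p = 0.0355). The median of the 7 was −0.29, which was 0.02 on the median scale, 0.09 on the spike-in scale, −0.045 with the slide row as a block and −0.09 without Foxo3 siRNA replicate 3. Without ND3 the median was −0.30, which was 0.015 on the median scale, 0.088 on the spike-in scale and −0.17 with the row block. ND4L read 5.84, 5.89 and 5.97 after Foxo3 knockdown against 6.11, 6.26 and 6.38 in the controls. ND2 and ND4, both proton-pumping subunits, were likewise below in all Foxo3 siRNA arrays, which made 3 of the 7, beside 28.5% of all features. The differences were −0.35, −0.30 and −0.29, and none passed (adjusted p = 0.0699, 0.0907 and 0.0999). The difference between nuclear and mitochondrial subunits was not tested.

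Ubiquinone, which complex I reduces, is made by the Coq enzymes. Of 13 listed genes 12 were tested; 6 rose and 2 fell, with a median of 0.42 (0.73 on the median scale and 0.81 on the spike-in scale), and Coq3 had no probe past the filter. Coq7, the hydroxylase of the next-to-last step, read 0.90, 1.03 and 0.94 against −0.22, −0.28 and −0.24. With no overlap and little spread it rose to 230.4% of the nontargeting signal (log2 1.20, SE 0.10, adjusted p = 0.00139). Coq4, which holds the synthesis enzymes together, rose by 0.81 (SE 0.14, adjusted p = 0.0098). Coq8a, an atypical kinase-like protein of the same complex, fell by 1.43 (SE 0.27, adjusted p = 0.0141); 1 of the 3 knockdown arrays did not read it well above background. Leaving out Foxo3 siRNA replicates 1, 2 and 3 in turn left 3, 2 and 4 of the list higher, and leaving out any nontargeting array left 2. Coq7 and Coq4 passed in all 6 fits that left out an array, and Coq8a in all but those without nontargeting replicate 1 or 2. With the slide row as a block, or on the spike-in scale, only Coq7 of this list passed.

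**Figure D5:**
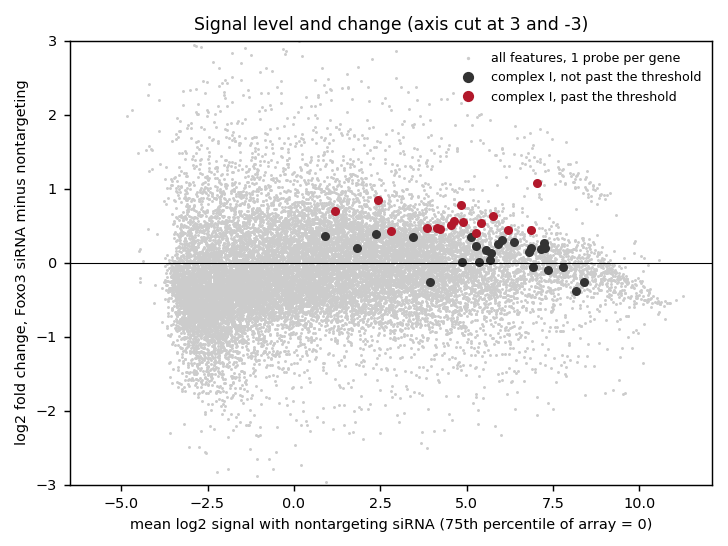
Log2 fold change against the mean log2 signal of the nontargeting arrays for all features (grey) and the 41 complex I genes (dark, or red where past the threshold), with the vertical axis limited to −3 to 3. The red points other than Ndufv3 lie between 1 and 7, where dark points lie as well. Of the 8 complex I genes over 7, only Ndufv3 is red and 4 are below 0.

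The fold change varied with the brightness of the probe, which depends on the probe as well as on the transcript. Of the 8 genes whose nontargeting signal was over 7, only Ndufv3 rose and 4 were below 0 (Ndufa1, Ndufa6, Ndufa7 and Ndufa13). Over the 41 genes the correlation of signal and fold change was −0.419, a description over genes that share the same 6 arrays, and over all 19234 features it was 0.109. The part of brightness in the result was not tested.

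Markers of cell types were read beside this result. Gata1, Klf1, Alas2 and the globins, defining genes of red cell precursors, were well above background on all 6 arrays. Of the 13 erythroid markers tested, 1 rose (Tfrc, the transferrin receptor) and 1 fell (Hbb-bs, a beta globin), with 6 at an unadjusted p under 0.05, and the summed level was 12.5 to 12.9 on the Foxo3 siRNA arrays and 13.1 to 13.2 on the nontargeting arrays (log2). In 6 of the 13 the Foxo3 siRNA arrays were all below the nontargeting arrays, beside 28.5% of all features. Among these, named after their values were seen, the alpha globins Hba-a1 and Hba-a2, the beta globin Hbb-bt and Alas2, a heme synthesis enzyme, gave −0.46, −0.51, −0.55 and −0.41 and stood short of the threshold (adjusted p = 0.0671, 0.0512, 0.072 and 0.0526). The count that fell was 5 without Foxo3 siRNA replicate 1, under normexp and under the filter on all 6 arrays, and 3 with 1 probe per gene or the replicate block. It was 0 without any other single array, with quantile, median or spike-in scaling, with no filter, with the slide row as a block and in the authors' deposited table. Over all features, 2282 fell without Foxo3 siRNA replicate 1, 3644 under normexp and 2574 of 13505 under the filter on all 6 arrays. The main comparison had 2530. On the median scale Hbb-bs gave −0.23 (adjusted p = 0.613). Of 8 megakaryocyte markers tested, Treml1, Itga2b and Gp1ba rose (2.50, 1.26 and 0.59, adjusted p = 0.00269, 0.00184 and 0.0230). Itgb3 fell (−0.80, adjusted p = 0.00491, on the median scale −0.48, adjusted p = 0.207), and 5 of the 8 were below 0. Treml1, Itga2b and Itgb3 passed in all 6 fits that left out an array, and Gp1ba in 3. Summed levels were 6.84 to 7.18 against 7.45 to 7.50, with Itgb3 the brightest of the 8 (mean 7.01 in the controls). None of the 5 myeloid, 3 lymphoid and 2 stromal markers tested passed in limma, with 2, 1 and 1 at an unadjusted p under 0.05. Their summed levels were 6.05 to 6.20 against 6.18 to 6.88, 3.06 to 3.39 against 3.37 to 3.74, and −1.04 to −0.57 against −0.69 to −0.19. Mpo, Ly6g, S100a8, S100a9, Lyz2, Ptprc, Col1a1, Cdh5, Pdgfrb, Ppbp and Vwf had no probe past the filter. In these bulk samples a change in the mix of maturation stages and a change in RNA per cell cannot be told apart, and the part of these markers in the complex I result was not tested.

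The promoters of the members were searched for letters known from factors of erythroid cells and of mitochondrial genes, because many members moved in one direction. RefSeq promoters (build GRCm38.p6, 250 bases before to 50 after the start, both strands) matched 37 of the 41 genes, 15 of which rose. The forkhead letters GTAAACA stood in 1 of the 37, Ndufaf1, beside 4.05% of all 27025 genes, and the GATA letters AGATAA in 2, Ndufa12 and Ndufc2, beside 12.7%. The NRF1 motif stood in 8 (21.6%), beside 5.19%, and the ETS letters CCGGAAG in 5 (13.5%), beside 9.93%; none of these motifs contains another. Of the 15 genes that rose, 2 had the NRF1 letters (Ndufaf4 and Ndufa8) and 2 the GATA letters (Ndufa12 and Ndufc2). The ETS letters stood in 1 of the 15 and the forkhead letters in 0. The other genes with the NRF1 letters, Ndufa11, Ndufa5, Ndufa6, Ndufb4, Ndufs5 and Ndufs6, did not pass. For Ndufaf4 and Ndufa8, which rose and hold the NRF1 letters, the 250 bases before the start are printed. They run 5′ to 3′ on the gene's strand, with the NRF1 letters in capitals.
Ndufaf4, chr4:24897833-24898082, plus strand: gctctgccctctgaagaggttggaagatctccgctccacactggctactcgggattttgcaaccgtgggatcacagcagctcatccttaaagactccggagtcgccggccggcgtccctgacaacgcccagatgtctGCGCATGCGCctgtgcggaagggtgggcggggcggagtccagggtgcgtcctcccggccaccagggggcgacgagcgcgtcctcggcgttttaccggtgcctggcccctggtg
Ndufa8, chr2:36049339-36049588, minus strand: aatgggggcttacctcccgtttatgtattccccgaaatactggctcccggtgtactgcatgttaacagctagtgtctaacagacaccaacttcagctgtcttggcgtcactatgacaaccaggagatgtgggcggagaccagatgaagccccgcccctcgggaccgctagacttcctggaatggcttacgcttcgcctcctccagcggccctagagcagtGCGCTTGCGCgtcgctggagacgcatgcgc
The letters lie from −113 to −104 in Ndufaf4 and from −30 to −21 in Ndufa8, counted from the start site. A match describes these letters only.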

How the data were processed

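Per the labels, 6 mouse RNA samples (3 Foxo3 siRNA, 3 nontargeting) were labelled with Cy3 and hybridised to 1-colour arrays; nothing says that replicates came from separate cultures, so p-values cover only the spread between arrays, which may be technical. The deposited spot intensity came, per the file headers, from Feature Extraction 10.7.3.1, which subtracts background and detrends each array. The authors' deposited log2 fold change and p-value come from limma, per the submitters' processing notes, and base 2 was read from comparison with the signals (slope 0.848, r = 0.962).

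Of 62976 spots per array, 3671 controls were left out and outlier spots set to missing. The log2 signal minus the 75th percentile of its array was used, averaged over the spots of a probe. A probe was kept if 1 group read it well above background on all 3 arrays (27012 probes). Groups were compared with limma 3.58.1 (R 4.3.3, lmFit and eBayes, two-sided, no covariates), with Benjamini-Hochberg adjustment over all kept probes. The fit was also tested on simulated data, which had the same spread for all probes and no slide row effect. Each gene was represented by its brightest kept probe. All 56 complex I probes matched RefSeq, 48 by accession and 8 by symbol. Named genes were the members, with values per array for those past the threshold with the largest changes and those whose probes disagreed, up to 3 genes of each other list by adjusted p, and Foxo3; others were named after their values were seen. A few genes enter the counts and medians but are not reported by name here. Members and lists were chosen with earlier results of these data known.

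Spots well above background numbered 30619, 37532 and 20343 on Foxo3 siRNA arrays 1 to 3 and 33513, 31611 and 32182 on the nontargeting arrays; Foxo3 siRNA replicate 3 held surrogate values on 50.2% of spots, against 16.7% to 29.3% elsewhere. No spot was saturated. The number of arrays limits the precision. Array correlations were 0.984 to 0.993 within groups and 0.966 to 0.981 across. The alternatives were quantile, median and spike-in scaling, normexp background correction with an offset of 50, other filters, 1 probe or a probe mean per gene, the slide row and the replicate number as blocks, each array left out, and the authors' values; the values within slide row 1 were added after seeing the data.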

Additional observations from a re-analysis of the deposited data

How the results depend on the processing

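The main comparison had 16 of 41 complex I genes higher, beside 13% of all features, 0 lower and a median of 0.30. Quantile normalization gave 17 higher (12.9% of all features), median scaling 15 (15.4%), normexp 20 (14.6%), the filter on all 6 arrays 20 (22.6%), 1 probe per gene 18 (13.6%) and the mean over probes 16 (13.3%). Of these last 16, 15 were also higher in the main comparison; Ndufb5 dropped out and Ndufs8 came in (0.34, adjusted p = 0.0454). Spike-in scaling gave 1 (4.09%) and no filter 0 (1.55%); the slide row as a block gave 3 (4.53%), row 1 alone 1 (2.30%) and the authors' deposited values gave 1 (3.08%). The median was 0.61 with median scaling, 0.69 with spike-in scaling, and 0.34 with normexp, the row block, row 1 alone and the authors' table. Leaving out 1 array in turn gave 4 to 10 higher (7.21% to 11.2%), 0 to 1 lower and medians of 0.25 to 0.35. The cause of these differences was not tested. The replicate numbers gave no clear sign of pairing. Same-numbered deviations correlated at 0.161, −0.313 and 0.127, beside −0.378 to 0.295 for differently numbered arrays. The replicate block left 14 genes higher (12.3%) and a median of 0.30. A fit within a slide row holding several arrays of both groups was not run, because row 1 held 1 Foxo3 siRNA array.

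Over single genes and probes, 790 alternatives kept direction and call, 166 lost the call, 15 gained it and 37 turned the sign; none of the 37 belonged to a value past the threshold. With median and spike-in scaling respectively the turned values were 0.25 and 0.32 for Ndufa13, 0.053 and 0.13 for Ndufa4, 0.048 and 0.12 for Ndufa6, 0.22 and 0.29 for Ndufa7, 0.25 and 0.33 for Ndufb11 (its overlapping probe 0.27 and 0.35), 0.070 and 0.14 for the dim Ndufa3 probe, and 0.087 and 0.16 for the dim Ndufv3 probe. With the row block or row 1 alone they were 0.028 for Ndufa7, 0.0974 for Ndufb11 (overlapping probe 0.11) and −0.16 for the dim Ndufb5 probe. Ndufb11 was 0.0463 as a mean over probes and 0.044 in the authors' table. Leaving out 1 array in turn gave −0.0544 to 0.067 for Ndufa11, −0.0426 to 0.083 for Ndufa5, −0.037 to 0.11 for Ndufs4, −0.11 to 0.015 for the overlapping Ndufb11 probe and −0.0781 to 0.089 for the dim Ndufb5 probe.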

Other observations

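The other entry point of electrons to ubiquinone, complex II, was read by 8 genes, of which 2 rose, 1 fell and 5 did not pass, with a median log2 fold change of 0.25 (0.57 on the median scale, 0.64 on the spike-in scale and 0.089 without nontargeting replicate 1). The subunits of the enzyme gave 0.24 for Sdhb, 0.32 for Sdhc and 0.04 for Sdhd, and Sdha stood at 99.99% of the nontargeting signal. None of these 4 passed. The genes that passed were assembly factors. Sdhaf4, which helps flavin-bearing Sdha on its way into the complex, read 3.28, 3.17 and 3.28 after Foxo3 knockdown against 2.14, 2.21 and 2.33 in the controls, and rose by 1.02 (SE 0.11, limma adjusted p = 0.0025). Sdhaf1, needed for the iron-sulfur subunit, rose by 0.38 (adjusted p = 0.0418), and Sdhaf2, which attaches the flavin, fell by 0.37 (adjusted p = 0.0455). Sdhaf4 passed in all 6 fits that left out an array and Sdhaf1 and Sdhaf2 in 0; Sdhaf2 gave −0.057 on the median scale and 0.016 on the spike-in scale. Sdha, Sdhb, Sdhc and Sdhd were named after their values were seen.

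Of 12 listed regulators of mitochondrial biogenesis 10 were tested; 1 rose, 0 fell, and the median was −0.02, which was 0.29 on the median scale and 0.36 on the spike-in scale. Tfb1m, which methylates the small ribosomal RNA of mitochondria, read 0.92, 1.14 and 1.17 against 0.27, 0.42 and 0.35 and rose by 0.73 (SE 0.12, adjusted p = 0.00848), also in all 6 fits that left out an array but not with the slide row as a block (adjusted p = 0.0809). Gabpb1, a subunit of the ETS factor that binds many respiratory chain promoters, gave −0.35 (adjusted p = 0.0704), and Esrra, a nuclear receptor active on the same genes, gave 0.31 (adjusted p = 0.0799). Ppargc1a and Ppargc1b, coactivators of this program, had no probe past the filter on dim signals.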
